A study of Mus musculus with 18 samples.

Results

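The libraries described here show how WT and IRF5 KO macrophages responded to lipopolysaccharide (LPS) given after the kinase inhibitor defactinib, and where the response of the genotypes differed. They are 12 of the 18 RNA-seq libraries of the study, chosen by their labels as 4 groups of 3: unstimulated WT, WT LPS defactinib, unstimulated IRF5 KO and IRF5 KO LPS defactinib. The value that compares the genotypes is the interaction, the log2 fold change of LPS defactinib over unstimulated in WT minus the same fold change in IRF5 KO. A positive interaction means that a transcript went up more, or down less, in WT. The 6 libraries of LPS with vehicle were left out by this choice.

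Bone marrow cells of both genotypes were grown with recombinant GM-CSF for 8 days into bone marrow-derived macrophages (BMDMs). The LPS defactinib groups of both genotypes received 3.5 µM defactinib for 1 h and then 100 ng/ml LPS for 2 h. Unstimulated groups received no LPS. Their sample titles and the study's description name DMSO as the control, while their column headers name an untreated state. None of the unstimulated libraries received defactinib, and the parts of LPS and of defactinib in each response cannot be told apart. The labels give the knockout only as IRF5ko, with no strain, sex or age of the mice, and do not tie replicates 1 to 3 to separate animals. The study's reporting summary gives 3 biological replicates for cell culture, without naming these libraries. All p-values below therefore measure the spread between these libraries, which may be technical. That spread was uneven. The chi-square per gene between the counts of 2 libraries was 3.82 for unstimulated WT replicates 1 and 2. It was 7.09 for unstimulated IRF5 KO and 4.79 for IRF5 KO LPS defactinib, replicates 1 and 3 of each. The other pairs within groups had 18.2 to 183. In bulk RNA a change in the number of cells of a type and a change in RNA per cell cannot be told apart.

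LPS is sensed on macrophages by TLR4 with its co-receptor CD14, and the signal passes through the adaptors MyD88 and TRIF to NF-kB, MAP kinases and interferon regulatory factors. IRF5 is one of these factors and is known for its part in the transcription of inflammatory cytokine genes in macrophages. Defactinib inhibits the related tyrosine kinases FAK and PYK2, encoded by Ptk2 and Ptk2b, and the study examined PYK2 as a kinase that acts on IRF5. The comparison asks how far the response to LPS in the presence of the inhibitor depends on the IRF5 genotype.

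The libraries held 40682747 to 61949143 counted read pairs, and 15146 genes passed a filter on low counts. Levels are given as CPM, read pairs relative to library size, scaled by the TMM factors of edgeR. WT LPS defactinib replicate 3 stood apart from the rest: in it, 1067 genes (7.04% of those tested) were more than 2-fold above or below both other replicates, against 104 to 499 genes for every other library. Of 67 interferon-stimulated genes tested, 66 were highest in replicate 3 within its group, by a median factor of 5.14 over the mean of replicates 1 and 2. The counts of each gene list that changed without replicate 3 are given beside it. The summed level of macrophage genes was 24307 to 40148 CPM over all libraries and that of dendritic cell genes 21152 to 44763 CPM, led by Lyz2 and Lgals3 in the former and by Cd74 and Ccl22 in the latter. The summed level of neutrophil genes was 312 to 324 CPM in unstimulated WT, 546 to 644 CPM in WT LPS defactinib, 1296 to 1965 CPM in unstimulated IRF5 KO and 2962 to 3180 CPM in IRF5 KO LPS defactinib. Mmp8, a collagenase of neutrophil granules, led that list in every library but WT LPS defactinib replicate 3, with 176 to 212, 185 to 363, 1041 to 1660.0 and 2459 to 2671 CPM in the same order of groups. Of the 17 neutrophil genes tested, 5 were called lower and 0 higher in WT at rest, against 3.96% and 4.54% of all genes, and 3 were called lower under LPS defactinib, against 9.67%. Mpo, Ctsg and Retnlg of that list were below the filter. Eosinophil genes summed to 150.5 to 276.5 CPM in WT and 59.3 to 78.6 CPM in IRF5 KO. Of the 8 tested, 1 was called higher and 1 lower in WT at rest, against 4.54% and 3.96% of all genes. Under LPS defactinib 2 were higher and 1 lower, against 10.4% and 9.67%. Lymphocyte genes summed to at most 7.9 CPM, with Cd3e, Trac and Cd79a of that list below the filter. Mast cell and basophil genes summed to 289 to 347 CPM in all groups, with Cd200r4 at a mean of 226 CPM in unstimulated WT and 114 CPM in unstimulated IRF5 KO. The median of that list at rest was 1.75 to 1.81 log2 CPM in WT and 3.84 to 4.11 in IRF5 KO, and 4 of its 11 genes were called lower and 0 higher in WT at rest, against 3.96% and 4.54% of all genes. A list of nuclear noncoding RNAs took 2596 to 3407 CPM in 5 of the 6 unstimulated libraries, 16136 CPM in unstimulated WT replicate 3, 28602 to 37937 CPM in IRF5 KO LPS defactinib and 42960 to 67852 CPM in WT LPS defactinib. It was led by Gm42418, which overlaps ribosomal RNA sequence, in all unstimulated libraries and in IRF5 KO LPS defactinib replicates 1 and 3, and by Gm26917 in the others. Gm26917 was at 48.2 to 148 CPM in the unstimulated libraries, 22909.7, 45248 and 35688 CPM in WT LPS defactinib and 11873, 19098 and 12569 CPM in IRF5 KO LPS defactinib. It rose in both genotypes, by 8.57 and 8.05 on the log2 scale, and its interaction was not called. The part of these differences in the results below was not tested.

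Irf5 itself (ENSMUSG00000029771, chr6:29526625-29541871, mm10) was counted at 609, 628 and 677 CPM in unstimulated WT and at 219.7, 253 and 401 CPM in WT LPS defactinib. The unstimulated IRF5 KO libraries held 343, 412 and 377 CPM and the IRF5 KO LPS defactinib libraries 379, 403 and 367 CPM. Irf5 transcript thus fell in WT, where the groups did not overlap, and stayed within the replicate range in IRF5 KO. The interaction was -1.15 on the log2 scale (SE 0.24, edgeR FDR 0.0036), with a WT response of -1.13 and an IRF5 KO response of 0.02. Without WT LPS defactinib replicate 1 it was -0.99 and below the fold change threshold. The difference between the genotypes at rest was a log2 fold change of 0.76 (FDR 0.00644), which is under 2-fold. Whole-gene counts do not show which exons the knockout removes, so these levels do not check the labels.

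Across all genes, 1828 of 15146 (12.1%) had an interaction that passed a false discovery rate (FDR) of 0.05 with more than a 2-fold difference, as the study set for its own calls. The interaction was negative for 1046 genes (6.91%) and positive for 782 genes (5.16%), and its median over all tested genes was 0.06. When scaled by library size alone, without TMM, 1225 of 2057 called genes were positive (59.6%, against 42.8% in the main fit) and the median was 0.23. In WT, 3910 genes (25.8%) responded, 1446 (9.55%) higher and 2464 (16.3%) lower with LPS defactinib. In IRF5 KO, 3821 genes (25.2%) responded, 1231 (8.13%) higher and 2590 (17.1%) lower. Before stimulation the test between genotypes called 1288 genes (8.5%), of which WT was higher for 688 (4.54%) and lower for 600 (3.96%). Under LPS defactinib 3033 genes (20%) differed, 1569 (10.4%) higher and 1464 (9.67%) lower in WT.

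**Figure D1:**
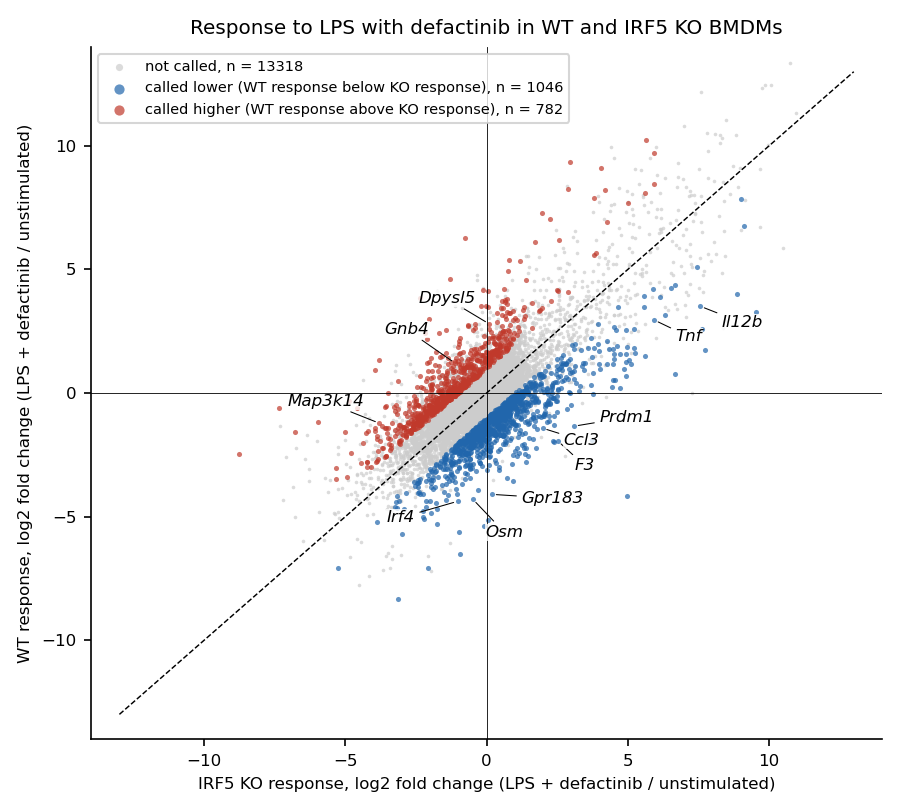
Response to LPS with defactinib of 15146 genes in IRF5 KO (horizontal axis) and WT BMDMs (vertical axis), both as log2 fold change over unstimulated. Points on the dashed diagonal responded alike, blue points (1046) lie below it and red points (782) above it by more than 2-fold at an FDR below 0.05, and Prdm1, Ccl3 and F3 are named at the lower right, where WT fell and IRF5 KO rose.

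The genes with a negative interaction were sorted by what each genotype did. In 448 of the 1046, expression fell in WT and was not called in IRF5 KO, and in 210 it rose in IRF5 KO and was not called in WT. Expression fell in both genotypes for 124 genes, further in WT, and rose in both for 65 genes, further in IRF5 KO. For 39 genes it fell in WT and rose in IRF5 KO, and for 160 neither response was called on its own. Between the genotypes, 822 of the 1046 differed only under LPS defactinib, where they were lower in WT, while 21 were higher in WT at rest and lower under LPS defactinib, and 42 were higher in WT at rest only.

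The genes with a positive interaction were sorted in the same way. For 300 of the 782, expression fell in IRF5 KO and was not called in WT, and for 207 it rose in WT and was not called in IRF5 KO. Expression fell in both genotypes for 123 genes, further in IRF5 KO, rose in both for 36, and rose in WT and fell in IRF5 KO for 19. Genes with a positive interaction had a median log2 CPM of 1.73 over the 12 libraries, against 4.05 for those with a negative interaction and 3.61 for all genes tested. Of the 782, 419 were called in every fit that left out 1 of the 12 libraries, and of the 1046, 821 were. On the CPM scale, without logarithms, the sign of the difference between responses was the opposite for 40 of the 1828 genes.

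Among genes of a symbol other than a predicted-gene name, averaging 3 or more on the log2 CPM scale, that were called in every fit that left out 1 library, the 10 most negative interactions were those of F3, Prdm1, Mex3b, Gpr183, Il12b, Sdc4, Osm, Il1a, Rnf19a and Rasgef1b. F3 (ENSMUSG00000028128, chr3:121723537-121735048) encodes tissue factor, the cell surface initiator of blood coagulation. Its level was 54.3, 54.3 and 73.9 CPM in unstimulated WT and 24.6, 8.38 and 14.3 CPM in WT LPS defactinib. In IRF5 KO it went from 17.3, 11.2 and 16.4 CPM to 88.4, 81.0 and 89.5 CPM. The order of the genotypes was reversed by stimulation, with WT above IRF5 KO at rest and below it afterwards, and no groups of a genotype overlapped. The interaction of F3 was -4.48 (SE 0.45, FDR 3.61e-05). Prdm1 (ENSMUSG00000038151, chr10:44437177-44528501) encodes the transcriptional repressor BLIMP1. It was counted at 20.7, 20.8 and 21.9 CPM in unstimulated WT and at 9.84, 5.32 and 9.90 CPM in WT LPS defactinib. In IRF5 KO the level went from 12.01, 11.8 and 12.2 CPM to 104, 104 and 101 CPM. Prdm1 fell in WT by 1.34 and rose in IRF5 KO by 3.10 on the log2 scale, an interaction of -4.44 (SE 0.24, FDR 9.09e-08).

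The most positive interactions by the same rule were those of Dpysl5, Map3k14, Relt, Gnb4, Castor2, Sinhcaf, Il4i1, Adcy6, Ptpn7 and Strip2. Dpysl5 (ENSMUSG00000029168, chr5:30711564-30799375), of the collapsin response mediator family, was counted at 2.52, 2.60 and 4.06 CPM in unstimulated WT and at 15.3, 17.03 and 31.5 CPM in WT LPS defactinib. The IRF5 KO libraries held 12.9, 21.4 and 14.05 CPM at rest and 16.02, 18.98 and 16.3 CPM after stimulation. Dpysl5 in WT thus started below IRF5 KO and came up to or above its range, and the interaction was 2.71 (SE 0.40, FDR 0.000395). Map3k14 (ENSMUSG00000020941, chr11:103219762-103267472) encodes NIK, the kinase that starts the noncanonical NF-kB pathway. It was at 65.9, 71.0 and 73.9 CPM in unstimulated WT and at 16.9, 32.9 and 40.9 CPM in WT LPS defactinib. In IRF5 KO it went from 88.2, 121 and 99.1 CPM to 7.57, 7.02 and 7.48 CPM. Map3k14 fell in both genotypes, by 1.22 in WT and by 3.80 in IRF5 KO on the log2 scale, and the interaction was 2.58 (SE 0.34, FDR 0.000172).

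The promoters of these 4 genes are shown because they head the negative and the positive interactions. Each is the 300 bases from 250 before to 50 after the RefSeq start site on build GRCm38.p6, 5′ to 3′ on the strand of the gene, with capitals for motif matches on either strand. The Prdm1 start in RefSeq lies within the longer gene given above. F3 lies at chr3:121723287-121723586 on the plus strand, Prdm1 at chr10:44458699-44458998 on the minus strand, Dpysl5 at chr5:30711314-30711613 on the plus strand and Map3k14 at chr11:103267352-103267651 on the minus strand.
F3: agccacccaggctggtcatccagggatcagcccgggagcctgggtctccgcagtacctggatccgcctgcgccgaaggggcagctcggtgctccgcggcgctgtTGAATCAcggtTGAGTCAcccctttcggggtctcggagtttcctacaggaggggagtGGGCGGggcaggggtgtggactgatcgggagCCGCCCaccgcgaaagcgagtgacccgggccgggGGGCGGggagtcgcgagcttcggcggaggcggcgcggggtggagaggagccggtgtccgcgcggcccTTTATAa
Prdm1: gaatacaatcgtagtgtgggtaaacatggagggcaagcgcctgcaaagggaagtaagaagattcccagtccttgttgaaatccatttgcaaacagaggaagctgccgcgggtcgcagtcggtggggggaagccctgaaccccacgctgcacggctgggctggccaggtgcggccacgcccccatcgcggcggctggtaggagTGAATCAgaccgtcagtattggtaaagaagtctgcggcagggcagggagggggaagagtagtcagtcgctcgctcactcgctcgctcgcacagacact
Dpysl5: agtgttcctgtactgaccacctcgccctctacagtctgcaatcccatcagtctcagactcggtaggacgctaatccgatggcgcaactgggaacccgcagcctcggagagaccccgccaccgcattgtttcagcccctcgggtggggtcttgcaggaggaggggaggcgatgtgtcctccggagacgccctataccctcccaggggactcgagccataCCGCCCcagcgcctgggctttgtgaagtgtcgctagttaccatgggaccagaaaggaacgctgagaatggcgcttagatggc
Map3k14: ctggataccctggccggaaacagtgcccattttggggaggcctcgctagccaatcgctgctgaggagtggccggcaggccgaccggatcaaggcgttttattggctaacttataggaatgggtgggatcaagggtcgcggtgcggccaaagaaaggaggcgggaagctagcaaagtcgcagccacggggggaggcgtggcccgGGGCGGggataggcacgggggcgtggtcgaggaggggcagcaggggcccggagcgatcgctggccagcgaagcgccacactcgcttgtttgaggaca

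F3 and Prdm1 held the AP-1 motif TGANTCA, the element bound by Fos and Jun family dimers. F3 held it at positions -146 and -135 and Prdm1 at -48 from the start site. Of all 27025 RefSeq promoters of this length 7.93% held this motif, and of the 10424 of tested genes 5.07%. Shares below are given in the same order. The GC box GGGCGG, present in 35.9% and 62.9% of promoters, lay at -89, -58 and -24 in F3, at -32 in Dpysl5 and at -47 in Map3k14, and a TATA box TATAAA, present in 14.2% and 7.26%, lay 43 bases after the start in F3. The interferon-stimulated response element core AAANNGAAA (10.7% and 8.19% of promoters), the cyclic AMP response element TGACGTCA (1.88% and 3.16%), the NF-kB site (8.18% and 10.1%) and the CArG box (1.57% and 1.26%) had no match in these 4 windows. Both strands were searched, and a match is a description of letters only. Promoters were known for 569 of the 782 genes with a positive and 766 of the 1046 with a negative interaction. They were known for 10424 of the 15146 tested genes, and coverage was under 80% in each set. Among the known promoters the AP-1 motif was held by 5.10%, 4.70% and 5.07% in that order. The AP-1 matches of F3 and Prdm1 are thus not a trait of the genes with a negative interaction. Shares of the other motifs are not compared between the sets here.

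The other genes with strongly negative interactions differed in which genotype moved. Gpr183 (ENSMUSG00000051212), the oxysterol receptor EBI2, fell in WT from 17.5, 17.8 and 13.1 CPM to 1.08, 0.623 and 1.11 CPM. In IRF5 KO it stood at 36.6, 41.0 and 37.8 CPM at rest and 45.9, 43.8 and 42.7 CPM after stimulation, a response that was not called. Osm (ENSMUSG00000058755), a cytokine of the IL-6 family, likewise fell in WT from 28.5, 31.0 and 37.1 CPM to 1.58, 1.12 and 2.20 CPM. The IRF5 KO libraries held 13.02, 13.4 and 14.2 CPM and then 9.97, 9.74 and 9.36 CPM. The interaction was -4.30 for Gpr183 (SE 0.23, FDR 8.2e-08) and -3.82 for Osm (SE 0.25, FDR 3.29e-07). Mex3b, an RNA-binding protein, and Rnf19a, a ubiquitin ligase, moved in opposite directions in the genotypes. Mex3b fell in WT from 8.74, 8.51 and 7.34 CPM to 2.23, 1.71 and 2.26 CPM and rose in IRF5 KO from 10.5, 11.9 and 11.2 CPM to 58.3, 62.9 and 56.5 CPM. Rnf19a started alike, at 35.9 to 38.3 CPM in the 6 unstimulated libraries, and ended at 17.9, 12.9 and 14.9 CPM in WT and at 195, 192 and 198 CPM in IRF5 KO. Sdc4, the cell surface proteoglycan syndecan-4, and Rasgef1b, a guanine nucleotide exchange factor for Ras family GTPases, rose in both genotypes and further in IRF5 KO. Sdc4 went from 33.3, 30.6 and 27.8 CPM to 73.5, 61.4 and 71.3 CPM in WT and from 10.7, 8.51 and 9.89 CPM to 339, 326 and 350.4 CPM in IRF5 KO, an interaction of -3.96. For Rasgef1b the interaction was -3.64.

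**Figure D2:**
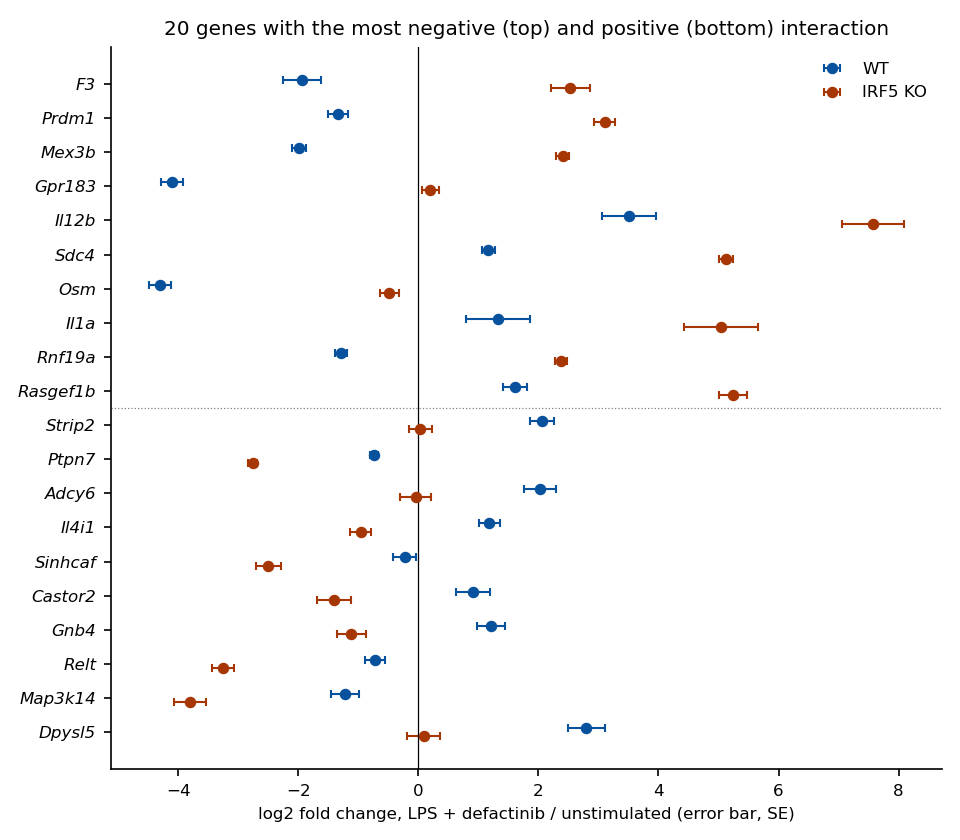
Response to LPS with defactinib, as log2 fold change over unstimulated, of the 10 genes with the most negative and the 10 with the most positive interaction, in WT (blue) and IRF5 KO (brown). Points are edgeR estimates from 3 libraries a group and bars 1 SE, and for F3, Prdm1, Mex3b and Rnf19a the WT point lies below 0 and the IRF5 KO point above it.

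Among the positive interactions, Relt and Ptpn7 fell in IRF5 KO and were below the fold change threshold in WT. Ptpn7, a phosphatase that acts on MAP kinases, was at 168, 178 and 169 CPM in unstimulated WT and 97.3, 110.1 and 102 CPM in WT LPS defactinib. In IRF5 KO it fell from 192, 185 and 204 CPM to 28.4, 29.3 and 27.9 CPM. No groups overlapped, and with an interaction of 2.03 (SE 0.10, FDR 5.07e-08) it had the smallest standard error of the 20 genes. Relt, a TNF receptor family member, stood at 22.1, 35.7 and 40.8 CPM in WT LPS defactinib and at 5.50, 6.86 and 6.599 CPM in IRF5 KO LPS defactinib, from 51.7 to 63.5 CPM in the unstimulated libraries of both genotypes. Adcy6, an adenylyl cyclase, rose in WT from 19.1, 19.6 and 22.7 CPM to 53.4, 67.2 and 130.4 CPM and kept to 23.7 to 29.8 CPM in the 6 IRF5 KO libraries. Gnb4, a G protein beta subunit, rose in WT from 22.02, 19.5 and 19.5 CPM to 30.5, 41.8 and 68.7 CPM and fell in IRF5 KO from 24.1, 31.8 and 22.03 CPM to 12.1, 12.3 and 11.6 CPM. Of these 10 genes with a positive interaction, 9 (all but Ptpn7) were highest within WT LPS defactinib in replicate 3, and for Dpysl5, Adcy6, Gnb4, Castor2 and Strip2 that was the highest of the 12 libraries. Without it the interactions of these 5 were 2.32, 1.6, 1.94, 1.76 and 1.75, and those of Map3k14, Relt, Sinhcaf and Il4i1 were 2.30, 2.34, 1.98 and 2.01, each still called. Strip2 lies on chromosome 6 near Irf5 and was the 1 gene called of 13 tested neighbours of Irf5, against 12.1% of all genes.

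Of 35 tested genes of the LPS receptor and Toll-like receptor signalling, 3 had a positive and 5 a negative interaction, with a median of 0.12. The shares of all genes were 5.16% and 6.91%. Tlr4 fell in both genotypes. It went from 104, 102 and 95.1 CPM to 18.4, 10.6 and 31.8 CPM in WT and from 124, 104 and 122 CPM to 24.1, 22.7 and 25.3 CPM in IRF5 KO, an interaction of -0.03 (FDR 0.972). Tlr2, the receptor for bacterial lipopeptides, fell in WT from 182, 178 and 170.1 CPM to 43.7, 45.5 and 46.8 CPM. In IRF5 KO, where its response was not called, it was at 101, 83.5 and 96.5 CPM and then at 118, 107 and 113 CPM, and the interaction was -2.23 (SE 0.12, FDR 6.57e-08). Traf6, the ubiquitin ligase downstream of MyD88, rose in IRF5 KO from 48.7, 51.7 and 48.8 CPM to 189.6, 182 and 191 CPM. In WT it stood at 48.1 to 51.9 CPM and then at 74.1, 42.6 and 69.4 CPM, where the groups overlapped, and the interaction was -1.61 (SE 0.21, FDR 0.000127). Cd14 had an interaction of -1.11, and of -0.88 without WT LPS defactinib replicate 2, which is below the fold change threshold. Tlr1 had a positive interaction of 1.96, and of 1.07 without WT LPS defactinib replicate 3, where it was at 7.12 CPM against 2.27 and 1.69 CPM. Its call was lost without unstimulated WT replicate 2 (1.92, FDR 0.05003). Negative interactions numbered 8 of the 35 without WT LPS defactinib replicate 3, and over the 12 fits that left out 1 library 4 to 8 were negative and 2 to 4 positive.

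Immediate-early genes, whose transcription starts within minutes of a signal without new protein, were called in 36 of 48 cases, against 12.1% of all genes. Of these, 35 had a negative and 1 a positive interaction, with a median of -1.78 against 0.06 for all genes. Among the 35, 10 fell in WT and were not called in IRF5 KO, 9 rose in both genotypes and further in IRF5 KO, 8 rose in IRF5 KO and were not called in WT, 5 fell in both, 2 fell in WT and rose in IRF5 KO, and 1 was called in neither. Without WT LPS defactinib replicate 3 the counts were 33 and 3 and the median -1.53, and over the 12 fits that left out 1 library they ran from 33 to 36 and from 1 to 3, with 2 positive without unstimulated IRF5 KO replicate 2. The median level of the list was 5.70 to 5.82 log2 CPM in unstimulated WT, 4.89 to 5.43 in WT LPS defactinib, 5.15 to 5.29 in unstimulated IRF5 KO and 6.44 to 6.51 in IRF5 KO LPS defactinib. The WT groups did not overlap, with stimulated libraries below the unstimulated ones, and the IRF5 KO groups did not overlap, with stimulated libraries above.

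Trib1, a pseudokinase that directs C/EBP proteins to degradation, fell in WT from 79.6, 77.7 and 86.6 CPM to 25.7, 16.5 and 10.5 CPM. For IRF5 KO the level rose from 32.4, 41.4 and 36.8 CPM to 96.6, 99.8 and 94.9 CPM. Dusp5, a phosphatase that inactivates ERK, fell in WT from 49.9, 50.2 and 61.6 CPM to 19.7, 11.9 and 13.6 CPM and rose in IRF5 KO from 64.9, 88.6 and 66.7 CPM to 200.1, 220.1 and 204 CPM. The interactions were -3.60 for Trib1 (SE 0.33, FDR 8.16e-06) and -3.34 for Dusp5 (SE 0.24, FDR 9.6e-07). Dusp1, the MAP kinase phosphatase MKP1, was at 41.9, 42.9 and 55.9 CPM in unstimulated WT and 37.6, 39.04 and 28.7 CPM in WT LPS defactinib. It rose in IRF5 KO from 15.9, 16.3 and 18.8 CPM to 76.5, 85.9 and 77.3 CPM. Klf6, a zinc finger transcription factor, was at 445 to 470.2 CPM and 198 to 409.7 CPM in the WT groups, a response that was not called (FDR 0.061), while IRF5 KO went from 335 to 358 CPM up to 1343 to 1485 CPM. Btg1, an antiproliferative factor, fell in WT from 888, 890.3 and 955 CPM to 284, 166 and 213 CPM, and its IRF5 KO response of 0.65 was below the fold change threshold. Myc fell in both genotypes, from 40.6 to 43.4 CPM down to 2.04 to 3.11 CPM in WT and from 38.1 to 39.97 CPM down to 7.01 to 7.60 CPM in IRF5 KO, an interaction of -1.59.

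The Fos and Jun families, whose dimers form AP-1, did not move as 1 group. Fos rose in both genotypes, from 5.86, 5.12 and 5.37 CPM to 95.3, 75.5 and 57.1 CPM in WT and from 7.03, 4.32 and 8.37 CPM to 50.4, 51.7 and 51.3 CPM in IRF5 KO. The stimulated WT libraries were all above the IRF5 KO ones, and the interaction of 0.84 was not called (SE 0.30, FDR 0.0513). It was 1.01 and called without WT LPS defactinib replicate 3, and 1.06 and called without unstimulated IRF5 KO replicate 2. Fosb and Junb had interactions of -2.09 (FDR 0.00646) and -2.18 (FDR 2.73e-05). Junb rose in IRF5 KO from 115, 115 and 137 CPM to 719.9, 955 and 685 CPM, against 163 to 219 CPM and then 230.3 to 330.3 CPM in WT. Jun had an interaction of -1.09 (FDR 0.0186), and of -0.81, below the fold change threshold, without WT LPS defactinib replicate 3. Egr1, a zinc finger factor induced through ERK and the serum response factor, rose from 21.9, 22.4 and 29.6 CPM to 554, 581 and 408 CPM in WT. The IRF5 KO level rose from 9.17, 6.54 and 8.94 CPM to 804, 921 and 776 CPM, an interaction of -2.28 (SE 0.23, FDR 1.46e-05). Gadd45g, a growth arrest and DNA damage gene, was the 1 immediate-early gene with a positive interaction, 2.17, and fell in both genotypes.

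**Figure D3:**
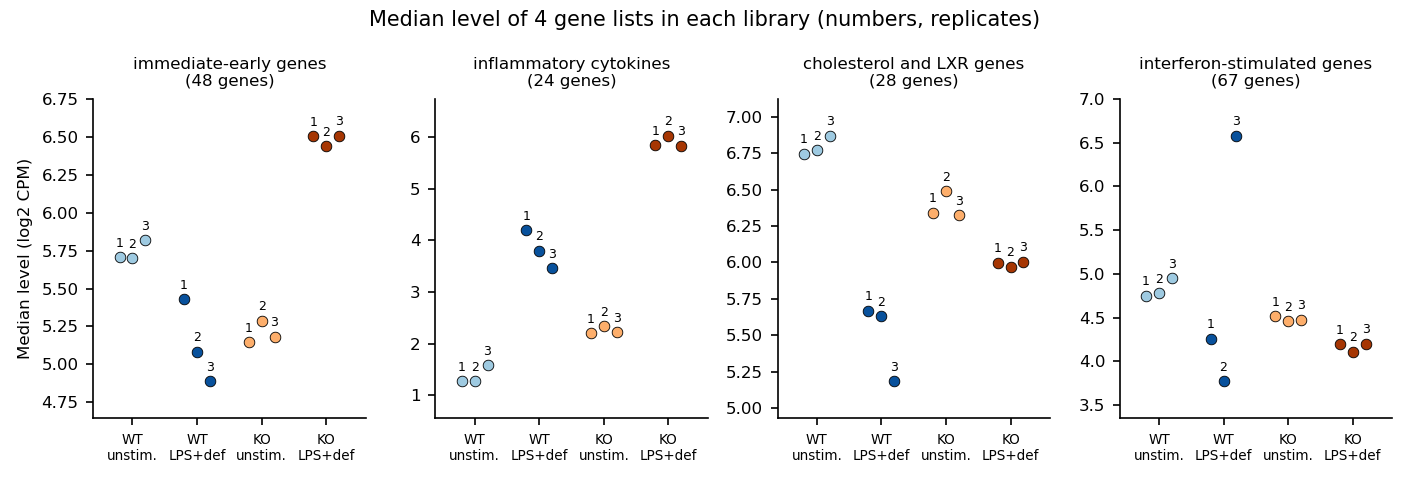
Median log2 CPM of 4 gene lists in each of the 12 libraries, with replicate numbers beside the points. Immediate-early genes lie highest in IRF5 KO LPS defactinib (6.44 to 6.51), and interferon-stimulated genes are at 6.58 in WT LPS defactinib replicate 3 against 4.26 and 3.77 in replicates 1 and 2.

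Of 24 tested genes of secreted cytokines, 8 had a negative and 1 a positive interaction, against 6.91% and 5.16% of all genes. The median was -1.16. Of the 8, 3 rose in both genotypes, 3 rose in IRF5 KO and were not called in WT, and 2 fell in WT and were not called in IRF5 KO. Il10, Il19 and Il36g were below the filter on low counts. Without WT LPS defactinib replicate 3, 10 had a negative interaction and the median was -1.62. Leaving out 1 library at a time gave 8 to 10 negative calls. The positive call was lost without unstimulated WT replicate 1 or 2, unstimulated IRF5 KO replicate 2, or IRF5 KO LPS defactinib replicate 1 or 2, and there were 2 without WT LPS defactinib replicate 2.

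Tnf (ENSMUSG00000024401, chr17:35199381-35202007) was counted at 97.6, 98.0 and 139 CPM in unstimulated WT and at 1099, 780.2 and 703 CPM in WT LPS defactinib. Its IRF5 KO level went from 59.8, 58.1 and 61.5 CPM to 3713, 3685 and 3632 CPM. Tnf rose in both genotypes, and every stimulated IRF5 KO library was above every stimulated WT library. The interaction was -2.99 (SE 0.23, FDR 1.27e-06), from responses of 2.95 in WT and 5.94 in IRF5 KO. Il12b (ENSMUSG00000004296, chr11:44400063-44414033), the p40 subunit shared by IL-12 and IL-23, rose in WT from 2.97, 2.60 and 4.53 CPM to 66.9, 17.002 and 30.4 CPM. It rose in IRF5 KO from 5.14, 6.52 and 5.64 CPM to 1124, 1046 and 1120.2 CPM. The stimulated WT libraries were widely spread but did not overlap the IRF5 KO libraries, and the interaction was -4.06 (SE 0.61, FDR 0.000819). Il1a (ENSMUSG00000027399, chr2:129299610-129309972), an alarmin of the IL-1 family, was at 66.2, 65.9 and 103 CPM in unstimulated WT and at 183, 51.3 and 357 CPM in WT LPS defactinib. The stimulated WT libraries ran from below to above the unstimulated ones. IRF5 KO rose from 85.6, 69.3 and 84.5 CPM to 2718, 2446 and 2704 CPM, and the interaction was -3.71 (SE 0.76, FDR 0.00548).

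Cytokines of the IL-6 family other than Il6 were among those called. Lif rose in IRF5 KO from 4.42, 5.34 and 3.83 CPM to 116, 124 and 117 CPM and in WT from 0.757, 0.526 and 0.773 CPM to 3.14, 2.05 and 0.816 CPM. Clcf1 rose in IRF5 KO from 8.03, 6.405 and 8.96 CPM to 55.2, 59.7 and 52.2 CPM and stood in WT at 12.9, 13.04 and 19.4 CPM and then at 9.15, 11.3 and 8.29 CPM. Their interactions were -3.15 (FDR 0.000539) and -3.49 (FDR 7.65e-07). Csf1, the macrophage growth factor M-CSF, fell in WT from 127, 126 and 181 CPM to 50.4, 36.7 and 51.5 CPM and was at 128 to 172 CPM in all IRF5 KO libraries, an interaction of -1.79. Il33 had the positive interaction of this list, 1.24 (FDR 0.024). It was at 33.0 to 50.1 CPM and then at 65.7 to 127 CPM in WT, and at most 3.10 CPM in IRF5 KO. The call of Il33 was lost without each of 5 libraries in turn, with values of 1.02 to 1.21.

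For other cytokines the WT LPS defactinib libraries disagreed with each other. Il1b was at 207, 69.1 and 984 CPM in them, and at 1934, 1794 and 1865 CPM in IRF5 KO LPS defactinib. Its interaction was -2.67 (SE 1.03, FDR 0.0864) and was not called, and without WT LPS defactinib replicate 3 it was -4.27 (FDR 0.000505) and called. Il6 was at 3.95, 0.727 and 14.4 CPM in WT LPS defactinib and at 108, 95.4 and 106 CPM in IRF5 KO LPS defactinib. All stimulated WT libraries were below the IRF5 KO ones, yet the interaction of -2.12 was not called (SE 1.87, FDR 0.449). Il6 was under 1 CPM in all unstimulated libraries. Il23a (-1.93, FDR 0.27) and Il12a (-0.49, FDR 0.916) were also near 0 at rest and were not called. Without WT LPS defactinib replicate 3 Il12a was at -3.85 (FDR 0.0236), and without replicate 1 Il23a was at -2.62 (FDR 0.0094). Ifnb1, which encodes interferon-beta, had at most 0.0175 CPM in any unstimulated library and stood at 38.8, 23.5 and 6.80 CPM in WT LPS defactinib and 18.3, 16.03 and 18.7 CPM in IRF5 KO LPS defactinib. The stimulated groups overlapped, and the interaction was not called (FDR 0.975).

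**Figure D4:**
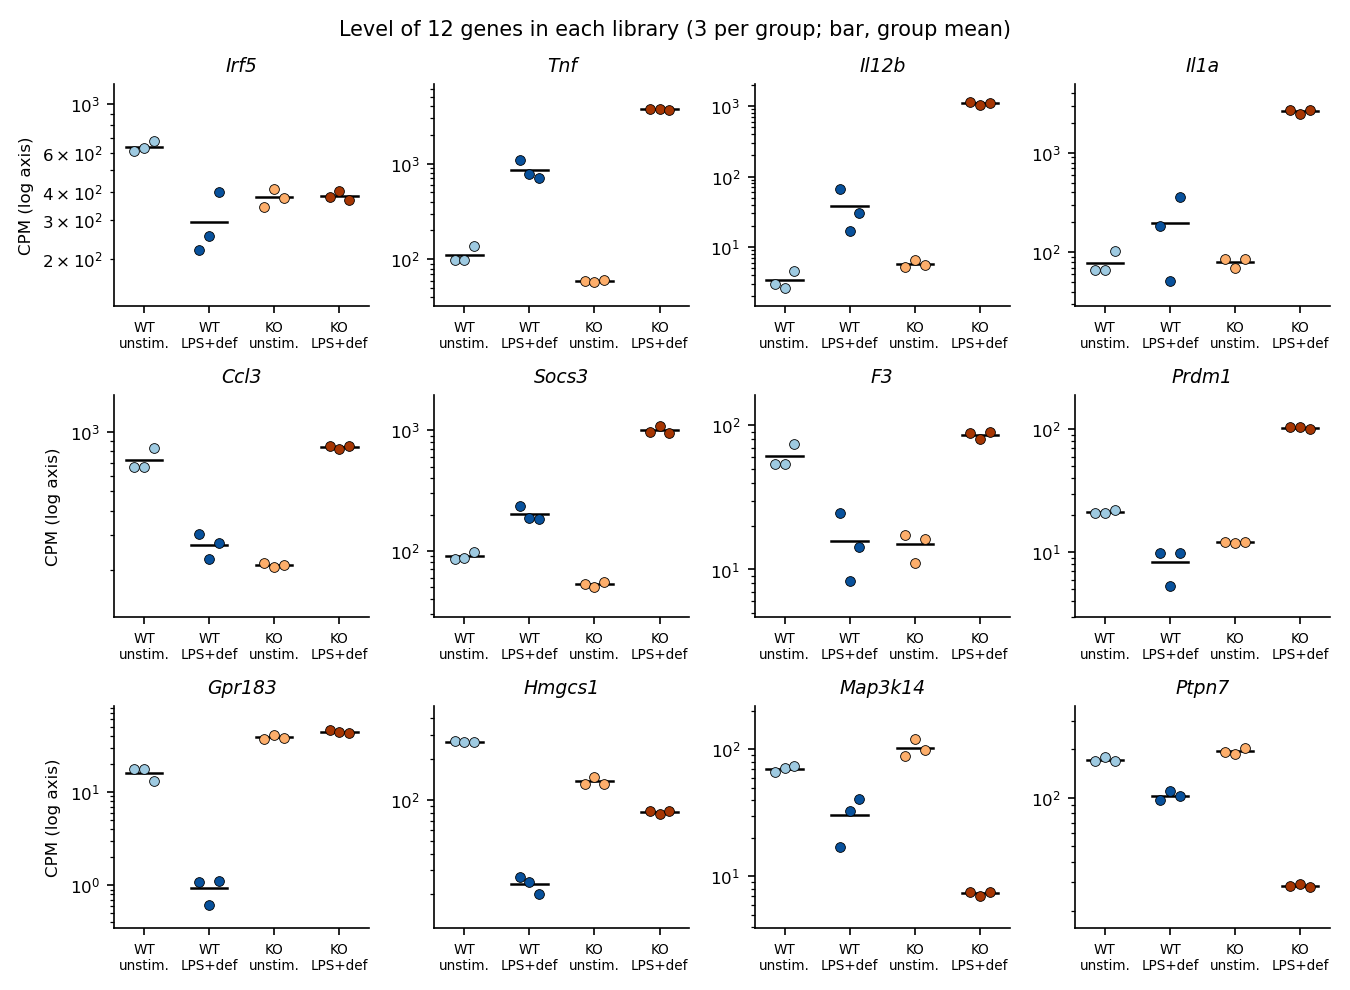
Level in CPM (log axes, scaled for each gene) of 12 genes in each library, with 3 libraries a group and a bar at the group mean. Tnf and Il12b rose in both genotypes and are highest in IRF5 KO LPS defactinib, Ccl3, F3 and Prdm1 fell in WT and rose in IRF5 KO, and Map3k14 and Ptpn7 are lowest in IRF5 KO LPS defactinib.

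Of 20 chemokine ligands tested, 6 had a negative and 2 a positive interaction, against 6.91% and 5.16% of all genes. The median was -0.34, and without WT LPS defactinib replicate 3 the counts were 9 and 2. There were 3 positive calls without WT LPS defactinib replicate 1 and 1 without unstimulated IRF5 KO replicate 2. Ccl3 (ENSMUSG00000000982, chr11:83647844-83649355), which attracts monocytes through chemokine receptors such as CCR1, fell in WT from 665, 663 and 829 CPM to 303, 226 and 274 CPM. It rose in IRF5 KO from 217, 206 and 212 CPM to 853, 824 and 848 CPM. The groups of neither genotype overlapped, and the interaction was -3.42 (SE 0.16, FDR 2.99e-08). Its neighbour Ccl4 stood at 233, 228 and 297 CPM in unstimulated WT and at 498, 339 and 278 CPM in WT LPS defactinib, which overlapped. Ccl4 rose in IRF5 KO from 96.0, 72.5 and 85.0 CPM to 718, 698 and 742 CPM, an interaction of -2.53 (SE 0.26, FDR 1.86e-05). The neutrophil-attracting Cxcl1 and Cxcl2 and the T cell-attracting Cxcl10 rose in both genotypes. Cxcl2 went from 24.7, 21.6 and 43.8 CPM to 1202, 994 and 881 CPM in WT and from 24.6, 20.4 and 23.7 CPM to 3963, 3885 and 4233 CPM in IRF5 KO. Interactions were -2.37 for Cxcl1 (FDR 0.000542), -2.36 for Cxcl2 (FDR 0.000121) and -2.28 for Cxcl10 (FDR 0.000134).

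Ccl22 and Ccl24 went the other way. Ccl22, a ligand of CCR4, rose in WT from 2873, 2857 and 3356 CPM to 11877, 9662 and 11121 CPM. For IRF5 KO the level stood at 2608, 3421 and 2585 CPM and then at 4848, 4810.3 and 4873 CPM, which is under 2-fold by the fit. The interaction of Ccl22 was 1.09 (SE 0.17, FDR 0.000357), and 0.94 without unstimulated IRF5 KO replicate 2, below the fold change threshold. Ccl24 had an interaction of 1.84 at levels of 0.494 to 4.11 CPM. Ccl5, an interferon-responsive chemokine, was at 331, 305 and 2769.9 CPM in WT LPS defactinib and at 139, 148 and 130.3 CPM in IRF5 KO LPS defactinib. Its interaction of 2.13 was not called (FDR 0.157), was called at 2.56 without WT LPS defactinib replicate 1 (FDR 0.0497), and was 0.29 without replicate 3 (FDR 0.121).

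Early NF-kB target genes respond to LPS without new protein and include feedback inhibitors. Of 36 tested, 11 were called with a negative and 0 with a positive interaction, against 6.91% and 5.16% of all genes. The median was -0.68. The counts without WT LPS defactinib replicate 3 were 19 and 0 and the median was -1.05. Over the 12 fits that left out 1 library 10 to 19 were negative, and 1 was positive without WT LPS defactinib replicate 1. Of the 36, 24 had an unadjusted p below 0.05 in edgeR, and DESeq2 called 12 and limma-voom 11. Nfkbid, a nuclear IkB protein, was at 14.6, 16.0003 and 20.5 CPM and then 17.3, 16.4 and 10.004 CPM in WT, and rose in IRF5 KO from 20.4, 18.5 and 21.6 CPM to 101, 114 and 97.9 CPM. The interaction was -2.59 (SE 0.25, FDR 1.03e-05). Icam1, the adhesion ligand of leukocyte integrins, stood in WT at 348, 353 and 361 CPM and then at 247, 227 and 414 CPM, and rose in IRF5 KO from 305, 292 and 309.6 CPM to 925, 939 and 907 CPM, an interaction of -1.87. Nfkbia, which encodes IkB-alpha, rose in both genotypes, from 128, 129.9 and 129 CPM to 564, 490.3 and 483 CPM in WT and from 126, 128 and 127 CPM to 1081, 1176 and 1092 CPM in IRF5 KO, an interaction of -1.15.

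Among 24 feedback inhibitors of Toll-like receptor and cytokine signalling, 9 had a negative and 1 a positive interaction. The shares of all genes were 6.91% and 5.16%. The list median was -0.75, and without WT LPS defactinib replicate 3 the counts were 11 and 1. Negative calls numbered 8 to 11 over the 12 fits that left out 1 library. Socs3, which limits STAT3 signalling, rose in WT from 85.6, 87.4 and 97.0 CPM to 236, 188 and 185 CPM. The IRF5 KO level rose from 52.5, 50.5 and 54.9 CPM to 978, 1081 and 947 CPM, an interaction of -3.08 (SE 0.14, FDR 2.99e-08). Cish, a suppressor of STAT5 signalling, of which GM-CSF is an activator, fell in WT from 272, 278 and 309 CPM to 55.4, 40.8 and 56.9 CPM. Its IRF5 KO libraries went from 183, 199 and 196 CPM to 361, 389 and 355 CPM, a response of 0.94 that missed the fold change threshold, and the interaction was -3.42 (SE 0.16, FDR 3.17e-08). Zc3h12a, the RNase Regnase-1 that degrades cytokine transcripts, kept to 18.04 to 33.3 CPM in WT and rose in IRF5 KO from 20.6, 20.6 and 21.2 CPM to 90.6, 97.2 and 85.6 CPM. Tnfaip3, the deubiquitinase A20, rose in both genotypes, from 71.5, 73.7 and 78.7 CPM to 1689.6, 1003 and 1470.5 CPM in WT and from 62.4, 63.0 and 58.0 CPM to 3664, 3596 and 3648 CPM in IRF5 KO. Interactions were -2.52 for Zc3h12a and -1.68 for Tnfaip3. Sigirr, an inhibitory receptor of the IL-1 receptor family, had the positive interaction, 1.6, at levels of 2.43 to 6.66 CPM.

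**Figure D5:**
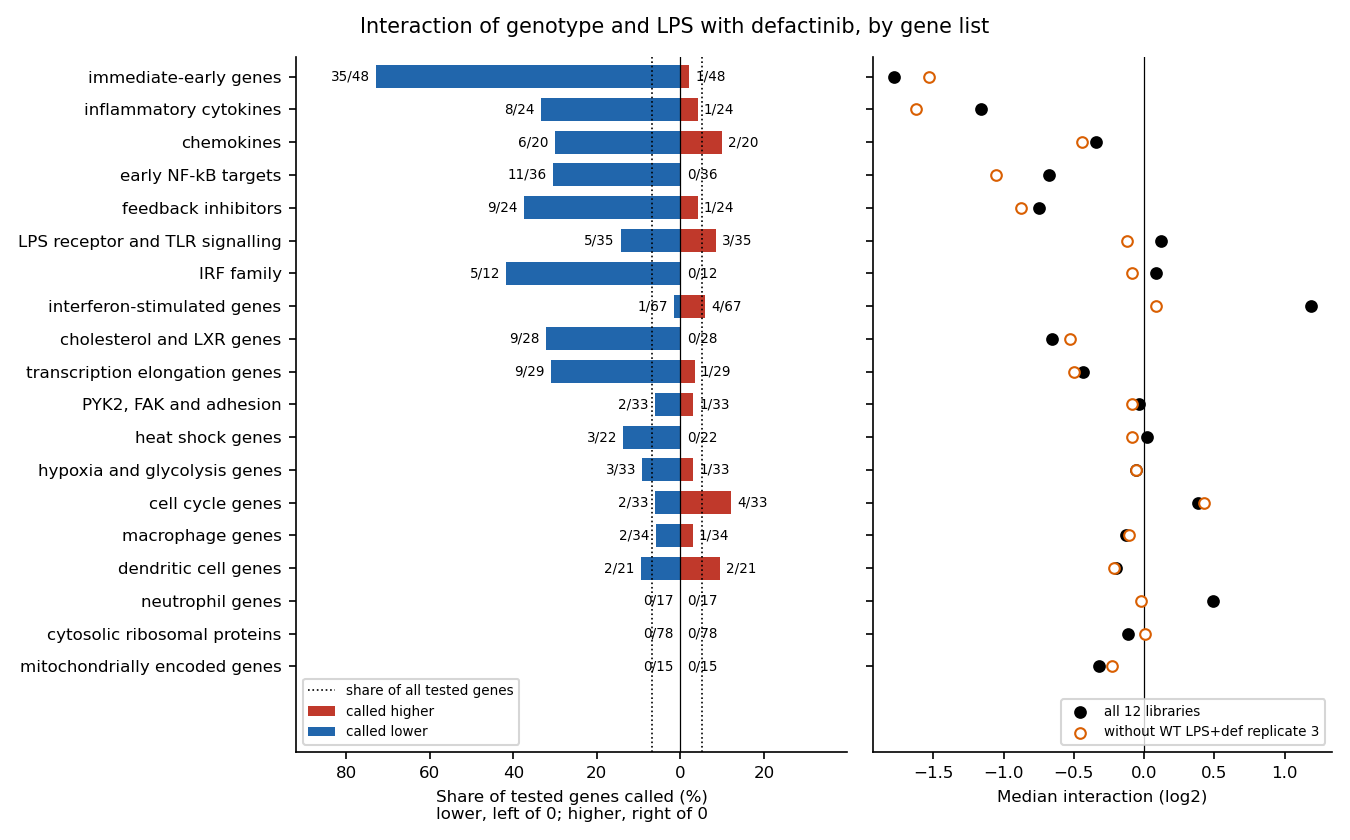
Share of the tested genes of 19 lists called with a negative (left of 0) or positive (right of 0) interaction, with counts beside the bars, and the median interaction of each list on the right with all 12 libraries (filled) and without WT LPS defactinib replicate 3 (open). Dotted lines are the shares of all tested genes, 6.91% and 5.16%, and immediate-early genes reach 35 of 48 on the left while the median of interferon-stimulated genes goes from 1.19 to 0.08 without replicate 3.

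Of 12 tested genes of an IRF list, Irf5 included, 5 had a negative and 0 a positive interaction by edgeR. Of all genes 6.91% and 5.16% did, and the list median was 0.09. Irf2bpl, which is not itself an interferon regulatory factor, was in the list and among the 5 (-1.76). An unadjusted p was below 0.05 for 6, with 5 called by DESeq2 and 5 by limma-voom. Over the 12 fits that left out 1 library there were 4 to 5 negative and 0 to 1 positive calls. Irf4, known for its role in dendritic cell and alternatively activated macrophage programmes, fell in WT from 524, 526 and 544 CPM to 27.7, 16.4 and 32.4 CPM. Its IRF5 KO level fell from 319, 367 and 318 CPM to 169, 159 and 165 CPM. Irf4 fell by 4.38 in WT and by 1.03 in IRF5 KO on the log2 scale, and the interaction was -3.35 (SE 0.25, FDR 1.4e-06). Irf1 was at 34.0, 34.0 and 31.1 CPM in unstimulated WT and at 23.4, 20.6 and 20.1 CPM in WT LPS defactinib, and rose in IRF5 KO from 50.2, 47.4 and 50.9 CPM to 100.2, 101 and 99.4 CPM. Its interaction was -1.64 (SE 0.11, FDR 5.14e-07). Irf7, the factor that amplifies the type I interferon response, was at 17.1, 11.6 and 937 CPM in WT LPS defactinib and at 8.97 to 20.8 CPM in the 9 other libraries. Its interaction of 4.35 was not called (SE 1.87, FDR 0.118). It was called without WT LPS defactinib replicate 1 (4.91, FDR 0.0366) or replicate 2 (4.92, FDR 0.0396), and was -0.13 (FDR 0.715) without replicate 3.

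The count for interferon-stimulated genes moved with that 1 library. Of 67 tested, 4 had a positive and 1 a negative interaction, against 5.16% and 6.91% of all genes, with a median of 1.19. Without WT LPS defactinib replicate 3 the counts were 1 and 12 and the median 0.08. Without replicate 1 of the same group 14 had a positive interaction, and without replicate 2, 23 did. Over all 12 fits that left out 1 library the count of positive calls ran from 0 to 23. Igtp, an interferon-inducible GTPase, shows the pattern, at 3.998, 6.18 and 25.1 CPM in WT LPS defactinib and 1.98, 2.26 and 2.46 CPM in IRF5 KO LPS defactinib, and its interaction was 2.59 (FDR 0.028), or 1.38 without replicate 3 (FDR 0.000303). The call of Igtp was lost without any 1 library of the other 3 groups, at FDR 0.0507 to 0.07. Ifi207 of the DNA sensor family was the 1 negative call, -1.96, and was -2.6 without replicate 3. Isg15 and Ifit1 were not called with all libraries (-1.01, FDR 0.178, and -1.77, FDR 0.175), and without replicate 3 they were at -1.68 (FDR 5.72e-05) and -3.29 (FDR 3.89e-08).

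In WT, 17 of 28 tested cholesterol genes fell, and in IRF5 KO 4 did, against 16.3% and 17.1% of all genes. Of these 28 genes of cholesterol and liver X receptor pathways, 9 had a negative and 0 a positive interaction by edgeR. The shares of all genes were 6.91% and 5.16%, and the list median was -0.65. Unadjusted p was below 0.05 for 17, and DESeq2 and limma-voom called 10 each. The count was 8 without WT LPS defactinib replicate 3 and 8 to 12 over the 12 fits that left out 1 library, with 0 positive in each. Of the 9, 8 fell in WT and were not called in IRF5 KO. The genotypes already differed at rest, where the list median was 0.69, higher in WT. At rest 3 of the 28 were called higher and 0 lower in WT, against 4.54% and 3.96% of all genes. Under LPS defactinib the median was -0.25, with 3 higher and 4 lower, against 10.4% and 9.67%. Hmgcs1, which makes the precursor of mevalonate, fell in WT from 272, 267 and 269.6 CPM to 26.8, 24.7 and 20.2 CPM. The IRF5 KO libraries went from 132, 147 and 132 CPM to 82.3, 78.6 and 82.8 CPM, under 2-fold by the fit, and the interaction was -2.74 (SE 0.14, FDR 4.21e-08). Mylip, a ubiquitin ligase induced by liver X receptors, rose in IRF5 KO from 10.3, 9.63 and 10.04 CPM to 35.3, 35.6 and 32.5 CPM and was not called in WT, an interaction of -2.52.

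Genes of transcription elongation had 9 negative and 1 positive interaction among 29 tested, against 6.91% and 5.16% of all genes. The median was -0.44, and without WT LPS defactinib replicate 3 the counts were 10 and 1. Negative calls numbered 8 to 10 over the 12 fits that left out 1 library, and the positive one was lost in 7 of them, without unstimulated WT replicate 2 or 3, WT LPS defactinib replicate 2, unstimulated IRF5 KO replicate 1 or 2, or IRF5 KO LPS defactinib replicate 1 or 2. Ccnt1 and Cdk9 encode the cyclin and the kinase of P-TEFb, which releases paused RNA polymerase II. Ccnt1 was at 51.5, 46.2 and 42.1 CPM in unstimulated WT and 25.8, 18.9 and 25.99 CPM in WT LPS defactinib, just under 2-fold by the fit, and rose in IRF5 KO from 57.4, 55.0 and 54.9 CPM to 122, 117 and 129 CPM. The interaction was -2.12 (SE 0.16, FDR 1.4e-06). Brd2, a bromodomain protein of the BET family, was at 292 to 308 CPM and then at 161 to 209 CPM in WT and rose in IRF5 KO from 256 to 269 CPM up to 675 to 710.5 CPM, an interaction of -2.08. Med26, a subunit of Mediator, had an interaction of -2.47 and Cdk9 of -1.08.

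The targets of the inhibitor and their partners were also listed. Of 33 tested genes of PYK2, FAK and adhesion, 1 had a positive and 2 a negative interaction. Neither was above the shares of all genes, 5.16% and 6.91%. Without WT LPS defactinib replicate 3 the counts were 2 and 5. They were 2 and 1 without WT LPS defactinib replicate 2. Ptk2b was at 167, 169 and 185 CPM in unstimulated WT, 108, 109 and 129 CPM in WT LPS defactinib, 187, 176 and 192 CPM in unstimulated IRF5 KO and 169, 171 and 157 CPM in IRF5 KO LPS defactinib. The WT groups did not overlap, and the interaction of -0.43 (SE 0.12, FDR 0.0157) was under the fold change threshold. Ptk2 was at 19.6 to 29.1 CPM in WT and 31.5 to 39.3 CPM in IRF5 KO, and its interaction was -0.08 (FDR 0.782). Crkl, an adaptor that links focal adhesion kinases to Rap1, fell in WT from 44.5, 46.7 and 40.5 CPM to 15.3, 11.1 and 16.6 CPM and was at 47.2 to 58.5 CPM in IRF5 KO, an interaction of -1.8 (SE 0.17, FDR 8.15e-06). Rap1gap, which turns Rap1 off, had the positive interaction, 1.8, at 1.92 to 4.80 CPM. Dock2, an exchange factor for Rac, had an interaction of 0.14 (FDR 0.521).

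Hspa1a, an inducible chaperone of the HSP70 family, rose in both genotypes. It went from 0.272, 0.509 and 0.730 CPM to 51.2, 56.1 and 30.4 CPM in WT and from 0.910, 0.801 and 0.896 CPM to 58.4, 71.2 and 59.1 CPM in IRF5 KO, an interaction of 0.35 (FDR 0.574). Hspa1b, a near-identical copy, had an interaction of 0.37 (FDR 0.401). Only uniquely mapped read pairs were counted, so pairs that match both copies are missing from both levels. Of 22 heat shock genes 3 had a negative interaction and 0 a positive one by edgeR, against 6.91% and 5.16% of all genes. There were 7 at an unadjusted p below 0.05, with 4 called by DESeq2 and 3 by limma-voom. The counts were 3 and 1 without WT LPS defactinib replicate 3. Bag3, a co-chaperone, fell in WT from 60.8, 61.9 and 64.6 CPM to 22.5, 20.4 and 22.3 CPM and was at 35.5 to 58.0 CPM in IRF5 KO, an interaction of -1.94. Dnajb4 had an interaction of -2.41 and Dnajb1 of -1.40.

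Among 33 cell cycle genes 4 had a positive and 2 a negative interaction, against 5.16% and 6.91% of all genes. The median was 0.38, and without WT LPS defactinib replicate 3 the counts were 5 and 0. Over the 12 fits that left out 1 library 3 to 6 were positive, and 1 was negative without unstimulated WT replicate 3 or unstimulated IRF5 KO replicate 1 or 3. Plk1 and Cdc20, which act in mitosis, fell in both genotypes and further in IRF5 KO. Plk1 went from 10.7, 12.2 and 9.45 CPM to 2.66, 3.92 and 4.13 CPM in WT and from 14.2, 25.2 and 15.5 CPM to 2.11, 2.17 and 1.71 CPM in IRF5 KO, an interaction of 1.59 (FDR 0.00275). Cdc20 had an interaction of 1.57 (FDR 0.00785). Mki67, the proliferation marker, rose in IRF5 KO from 103, 164 and 105 CPM to 332, 307 and 322 CPM, against 74.5 to 83.5 CPM and then 85.2 to 131 CPM in WT. Its interaction of -1.03 fell below the fold change threshold without each of 5 libraries in turn, at -0.91 to -0.99. Ccno, the cyclin O gene, rose in both genotypes and had an interaction of -1.15 (FDR 0.00442), or -0.95 without WT LPS defactinib replicate 3. Among 33 hypoxia and glycolysis genes 1 had a positive and 3 a negative interaction, near the 5.16% and 6.91% of all genes. Without WT LPS defactinib replicate 3 the counts were 0 and 4. Positive calls numbered 2 without WT LPS defactinib replicate 1, and the 1 positive call held without WT LPS defactinib replicate 2, unstimulated IRF5 KO replicate 2 or IRF5 KO LPS defactinib replicate 3 and was lost in the 8 other such fits, and negative calls ranged from 3 to 4. Vegfa, the angiogenic growth factor, was at 11.1 to 14.2 CPM and then at 7.01 to 7.86 CPM in WT and rose in IRF5 KO from 12.97 to 15.6 CPM up to 30.6 to 38.4 CPM, an interaction of -2.03 (FDR 2.85e-06).

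Of 34 macrophage genes 2 had a negative and 1 a positive interaction, and of 21 dendritic cell genes 2 and 2. The shares of all genes were 6.91% and 5.16%, and the macrophage counts were not above them. Over the 12 fits that left out 1 library, the macrophage genes had 1 to 2 negative and 1 to 3 positive calls, with 1 negative and 3 positive without WT LPS defactinib replicate 2 and 2 positive without WT LPS defactinib replicate 1 or unstimulated IRF5 KO replicate 2. Without WT LPS defactinib replicate 2 the dendritic cell genes had 6 negative calls, and without replicate 3, or without unstimulated IRF5 KO replicate 2, 4. Their positive calls numbered 1 without unstimulated IRF5 KO replicate 2 and 3 without WT LPS defactinib replicate 1 or unstimulated IRF5 KO replicate 3. Cebpb, a transcription factor of macrophages, fell in WT from 80.8, 95.2 and 129.6 CPM to 16.6, 35.9 and 20.5 CPM, while IRF5 KO libraries ranged from 64.9 to 128 CPM at rest and from 108 to 210.4 CPM after stimulation. The interaction was -2.66 (SE 0.52, FDR 0.00365). Zbtb46, a factor of classical dendritic cells, fell in WT from 61.99, 61.6 and 64.6 CPM to 31.1, 21.6 and 27.0 CPM and rose in IRF5 KO from 31.4, 43.8 and 33.1 CPM to 72.2, 72.0 and 75.9 CPM, an interaction of -2.26. Gata2, a factor of mast cells and basophils, had an interaction of -2.44 with 0.337 to 3.47 CPM in WT and 31.6 to 38.0 CPM in IRF5 KO. By edgeR, 0 of 17 neutrophil, 0 of 8 eosinophil and 0 of 5 lymphocyte genes were called. At an unadjusted p below 0.05 there were 2, 4 and 2, DESeq2 called 1, 0 and 0, and limma-voom called 0, 0 and 1. The neutrophil genes had 2 positive calls without WT LPS defactinib replicate 1 and 1 without IRF5 KO LPS defactinib replicate 2. The eosinophil genes had 1 without WT LPS defactinib replicate 1 or unstimulated IRF5 KO replicate 3, and the lymphocyte genes 1 without WT LPS defactinib replicate 3 or IRF5 KO LPS defactinib replicate 1 or 3. The lymphocyte gene Klrd1 was called (1.25, edgeR FDR 0.00857) without WT LPS defactinib replicate 3. Of 78 cytosolic ribosomal protein genes, 15 mitochondrially encoded genes and 4 sex chromosome genes, 0 were called by edgeR, DESeq2 or limma-voom, and 6, 7 and 1 had an unadjusted p below 0.05. The edgeR fit that left out WT LPS defactinib replicate 2 called 1 ribosomal protein gene, with a negative interaction. Of 11 mast cell and basophil genes 1 was called each way. Their positive calls numbered 0 without WT LPS defactinib replicate 1 or unstimulated IRF5 KO replicate 2, and 2 without WT LPS defactinib replicate 2, unstimulated WT replicate 1, unstimulated IRF5 KO replicate 1 or 3, or IRF5 KO LPS defactinib replicate 1. Of 3 stromal genes 1 was positive (Thy1), a call lost in 10 of the 12 fits that left out 1 library, and of 19 nuclear noncoding RNAs 1 was called each way, with 5 positive without unstimulated WT replicate 3 and 0 negative without WT LPS defactinib replicate 3.

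Responses of opposite sign, both called, were found for 58 genes with a called interaction, 39 lower in WT and higher in IRF5 KO and 19 the reverse. Beside those above, they included growth factors and receptors of cell surface signalling. Ptafr, the receptor for platelet-activating factor, fell in WT from 106, 105 and 94.3 CPM to 31.8, 17.8 and 35.3 CPM and rose in IRF5 KO from 150.3, 129 and 149 CPM to 445, 454 and 454 CPM. Adora2b, an adenosine receptor, fell in WT from 27.98, 27.8 and 29.3 CPM to 6.39, 5.24 and 6.55 CPM and rose in IRF5 KO from 26.4, 19.9 and 27.2 CPM to 58.8, 61.4 and 62.8 CPM. In neither gene did any groups of a genotype overlap. Edn1, which encodes endothelin-1, fell in WT from 63.3, 60.0 and 100.1 CPM to 15.4, 6.33 and 16.4 CPM and rose in IRF5 KO from 19.2, 19.8 and 18.1 CPM to 41.3, 38.7 and 40.7 CPM. Hbegf, a ligand of the EGF receptor, and Spry1, an inhibitor of growth factor signalling, had interactions of -3.03 (FDR 1.6e-06) and -4.29 (FDR 1.77e-06). Bcl2l1, which encodes the survival protein BCL-XL, fell in WT from 118, 116 and 137 CPM to 48.3, 41.7 and 60.6 CPM and rose in IRF5 KO from 81.8, 76.8 and 89.4 CPM to 165, 173 and 165 CPM, an interaction of -2.32 (SE 0.17, FDR 1.02e-06).

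The transcripts with a negative interaction also differed in a sequence feature that was examined after these results were seen. The heptamer TATTTAT, the core of AU-rich elements that mark many cytokine and immediate-early transcripts for rapid decay, was searched on the sense strand of annotated 3′ untranslated regions. It was present in 46.5% of genes with a negative interaction (443 of 952 with an annotated region), 24.6% of those with a positive one (162 of 659) and 29.6% of all tested genes (3674 of 12419). The median length of these regions was 1509, 1410 and 1146 bases. Within regions of 1000 to 2000 bases the shares were 47.2%, 18.6% and 32.0%, and within regions over 2000 bases 66.1%, 47.5% and 53.9%. The order was the same within regions of 500 to 1000 bases, at 33.7%, 13.6% and 19.6%. These shares are a description of letters and carry no test.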

How the data were processed

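RNA-seq libraries of BMDMs were mapped by the authors with STAR to mm10 and read pairs were counted per gene with featureCounts 1.6.3, reverse stranded and uniquely mapped, and the counts deposited by the authors are raw, not normalised. From these counts, genes were kept by filterByExpr over the 4 groups of 12 libraries (15146 of 50600 gene IDs, 24142 IDs without a count in all of them). They were scaled by TMM and fitted with 1 mean per group in edgeR 4.0.16 under R 4.3.3, with the robust quasi-likelihood F test, two-sided, and Benjamini-Hochberg adjustment over all tested genes. A gene was called at FDR below 0.05 and a fold change above 2. The SE is the log2 fold change divided by the square root of F. The fit was tested on simulated data with 200 changed genes.

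Named genes were those the study names, the 10 most positive and 10 most negative interactions described in the report, and in each gene list the 2 tested genes with the highest mean log2 CPM and the 2 called genes with the largest absolute interaction. A further 43 genes were named after their values were seen. The comparison and the gene lists were chosen with earlier results of these data known. Gene lists were counted without a set test. The search for TATTTAT was chosen after seeing the data. RefSeq promoters (GRCm38.p6) and GENCODE vM21 regions were used. DESeq2 1.42.0, limma 3.58.1 (voom), other filters and scalings, fits of 15 and 18 libraries, a replicate block and fits without each library were alternatives. The 6 libraries of LPS with DMSO entered only the alternatives that fit 15 or 18 libraries. Some results are not reported here.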

Additional observations from a re-analysis of the deposited data

Results flagged for a closer look

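These genes responded in opposite directions in the genotypes, with the response called in each and the interaction tested in the same edgeR fit. With WT lower and IRF5 KO higher, the interaction was -4.48 for F3, -4.44 for Prdm1, -4.39 for Mex3b, -4.29 for Spry1, -3.66 for Rnf19a, -3.63 for Edn1, -3.60 for Trib1, -3.54 for Adora2b, -3.50 for Ptafr, -3.42 for Ccl3, -3.34 for Dusp5, -3.03 for Hbegf, -2.41 for Dnajb4, -2.32 for Bcl2l1 and -2.26 for Zbtb46. With WT higher and IRF5 KO lower it was 2.32 for Gnb4. Single outlying libraries were not tested within groups of 3.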

How the results depend on the processing

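The count of genes with a called interaction was 1828, and 1802 with the replicate number as a block. Whether the numbers pair the libraries was not settled. A correlation of deviations above 0.1 was found in 0 of 18 same-numbered pairs (median 0.026), and 7 of 12 libraries correlated best with their own number. The deviations were taken within groups of 3 and the limit of 0.1 was set by choice, so this check cannot exclude pairing. Among named genes the block ended 2 calls by FDR, Thy1 (1.17) and Gm37376 (2.15), and gained 1. Without the fold change threshold the counts were 4237 for the interaction (2078 positive, 2159 negative), 9277 and 9189 for the WT and IRF5 KO responses, 3643 at rest and 7424 under LPS defactinib. With the threshold inside the test (glmTreat) they were 527 (82 and 445), 2433, 2336, 451 and 1423. A filter of 5 CPM in 3 libraries, which tests fewer genes, gave 495 positive interactions and counts of 2235, 2173, 615 and 1688 for the other comparisons. Positive interactions numbered 1225 by library size alone and 438 in the fit of all 18 libraries, and the cause was not tested. Leaving out 1 library gave 1675 to 2054 interactions, 636 to 943 positive and 1001 to 1211 negative, 3783 to 4141 WT responses, 3714 to 4045 IRF5 KO responses, 1068 to 1449 genes at rest and 2837 to 3207 under LPS defactinib. Of 98 named genes called, 68 kept their call in every alternative that tested them and 30 lost it in at least 1, and none reversed direction while called. The threshold inside the test ended 27 of these calls, at absolute log2 fold changes of 1.00206 to 3.13, among them Irf5, Ccl22, Il33, Nfkbia, Jun, Fosb, Plk1 and Cdc20. The fit of all 18 libraries ended 16, all by FDR, at 1.11 to 2.56, among them Egr1, Tnfaip3, Irf1, Fosb, Jun, Gadd45g, Plk1, Cdc20, Ccno, Igtp and Tlr1. Library size alone ended 9, all by fold change, at 0.832 to 0.99, among them Irf5, Cd14, Nfkbia, Jun, Cdk9, Ccno and Mki67. No filter ended 6, at 1.11 to 2.58, among them Igtp, Ifi207, Tlr1, Il33 and Jun. Il6 and Ifnb1 had few counts at rest, and the stimulated WT libraries also differed from each other. The part of depth in their missing calls was not tested.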
